A study of Mus musculus with 4 samples.

Results

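The genes described here encode the cytosolic translation initiation factors (eIF) and elongation factors (eEF), the proteins that start and extend the polypeptide chain on the ribosome. They were taken from the deposited expression table by symbol, as rows beginning with Eif1 to Eif6 or with Eef1 or Eef2, leaving out the eIF2 kinases (Eif2ak) and eEF2 kinase. This gave 58 of 23997 rows, of which 51 were initiation and 7 elongation factors. The sequenced RNA came from T follicular helper (Tfh) cells, a CD4 T cell type that supports germinal centre B cells, taken from lymph nodes and spleens of 13-week-old C57BL/6 mice. The groups were 2 wild-type (WT) libraries and 2, titled Apoe-KO, from Apoe-/- mice, which lack apolipoprotein E in all tissues, have raised plasma cholesterol and are prone to atherosclerosis. The labels give no treatment, diet, sex or sorting method, and do not say whether a library is 1 animal or a pool, so the p-values rest on library-to-library spread that may be only technical. Values are FPKM (fragments scaled to transcript length and to all mapped fragments), a level per length, so levels can be compared between genes within a library.

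In the textbook scheme, eIF2 bound to GTP brings the initiator tRNA to the small ribosomal subunit, while eIF1, eIF1A and eIF5 govern the choice of start codon and eIF2B reloads eIF2 with GTP. The eIF3 complex is the scaffold of this assembly. The cap of the mRNA is bound by eIF4E, which with the scaffold eIF4G and the helicase eIF4A forms eIF4F, and the eIF4E-binding proteins (4E-BPs) hold eIF4E inactive until the kinase complex mTORC1 phosphorylates them. eEF1A then delivers each aminoacyl-tRNA, eEF1B recharges eEF1A with GTP, and eEF2 moves the ribosome along. Activated T cells are known to raise protein synthesis, and mRNAs of elongation factors are classical members of the TOP class, whose translation follows mTORC1.

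No factor passed the test between genotypes. Among 55 tested factors Eif4a1, an eIF4A helicase, had the smallest adjusted p (0.0837, limma), with an Apoe-KO level 0.720 of WT. The test was limma on log2(FPKM + 1) over all 11187 genes with a mean of at least 1 FPKM. Adjustment was by Benjamini-Hochberg, with a threshold of 0.05. The fit had no term for replicate number. With such a term 17 of the 55 factors passed (30.9%, against 32.9% of all tested genes). The largest differences upwards were those of 2 eIF3 subunits, Eif3f (1.27 times WT, adjusted p = 0.119) and Eif3k (1.24 times, adjusted p = 0.181), followed on the log2 scale by the elongation factor Eef2, the eIF4E inhibitor Eif4ebp2 and Eef1a1, at 1.18, 1.16 and 1.15 times. Summed over each class, elongation factors had 1.38 and 1.34 times the FPKM of initiation factors in the WT libraries and 1.58 and 1.57 times in the Apoe-KO libraries. Eef1a1 alone made up 73.5% to 76.2% of the elongation factor sums. Of the 6 tested elongation factors 3 had positive and 3 negative differences.

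Over all tested genes 1.83% passed, 0.948% with Apoe-KO higher and 0.885% lower, against 0 of 49 initiation factors and 0 of 6 elongation factors. At an unadjusted p under 0.05, limma gave 4 factors, with Eif3f, Eif3k and Eef2 higher and Eif4a1 lower in Apoe-KO. That is 4 of 55, where 19.9% of all tested genes did so (11.6% with Apoe-KO higher and 8.27% lower). The groups did not overlap for 21 of 55 factors (38.2%), 12 with both Apoe-KO libraries above both WT libraries and 9 with both below, while 50.4% of all tested genes showed no overlap (27.5% above and 22.9% below). The log2 difference was at least 0.3 in size for 6 factors (10.9%, against 24.6% of tested genes). These shares compare sets of unlike level, since 51 of the 55 factors lay above the median level of the tested genes. Without Apoe-KO replicate 2, 3 factors passed, all lower in the remaining Apoe-KO library (Eif3j2, Eif4a1 and Eif5), and leaving out any other library gave 0. That is 5.45% of the factors, beside 6.19% of all genes tested without that library.

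The libraries' FPKM totals ranged from 522371 to 551289. Apoe was at 145 and 128 FPKM in WT and at 5.09 and 5.21 FPKM in Apoe-KO libraries. The T cell genes Cd4 and Cd3e and the Tfh markers Cxcr5, Bcl6 and Pdcd1 were all present. Cxcr5 and Bcl6 had log2 differences of 0.33 (adjusted p = 0.153) and 0.23 (adjusted p = 0.250). For Pdcd1 the difference was -0.50 (adjusted p = 0.0887), from a WT mean of 271 FPKM and an Apoe-KO mean of 191 FPKM. The 9 genes of the Tfh list summed to 1706 and 1733 FPKM at the lowest and highest in WT and to 1727 and 1729 FPKM in Apoe-KO. Markers of other cells were present too. Of 10 B cell markers 4 passed the test, all lower, and their sum was 329 to 334 FPKM in WT and 195 to 204 FPKM in Apoe-KO. Of 9 neutrophil markers 4 were tested and all 4 passed, higher in Apoe-KO (sums 7.45 to 9.20 and 50.04 to 66.7 FPKM), with Elane and Camp listed at 0 in all libraries. The 10 CD8 T and NK cell markers summed to 23.9 to 24.4 FPKM in WT and 32.8 to 41.7 FPKM in Apoe-KO. The 11 macrophage and monocyte markers found summed to 240 to 272 and 298 to 336 FPKM, and 1 passed, higher in Apoe-KO. The 8 dendritic cell markers summed to 67.7 to 76.5 and 52.9 to 56.3 FPKM, with 1 passing higher and 1 lower. Of 6 plasma cell markers found 1 passed, higher (sums 99.5 to 108 and 91.6 to 95.2 FPKM). Of 7 erythroid markers 0 passed (sums 19.1 to 23.5 and 11.1 to 33.2 FPKM). Among 10 proliferation genes 0 passed (sums 517 to 575 and 407 to 466 FPKM). Whether these other cells contribute to the values of the factors was not tested, and in bulk RNA fewer cells of a type cannot be told apart from less RNA per cell.

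The factors were among the more abundant mRNAs of these cells. Of the 55 tested, 51 lay above the median level of the tested genes, 15.4 FPKM. Eef1a1 was at 5042 and 5424 FPKM in WT and 5677 and 6404 FPKM in Apoe-KO libraries, and its rank among all rows was 2 or 3 in each library. Eef2 came next with a mean of 978 FPKM, then Eif1, a gatekeeper of start codon choice, with 791 FPKM, and the eEF1B subunit Eef1g with 452 FPKM. At the other end lay Eif5a2 (4.59 FPKM), the second eIF5A gene, and Eif4e3 (8.07 FPKM), an eIF4E relative. The other 3 rows were listed at 0 in all 4 libraries and were not tested. They are Eef1a2, the eEF1A of muscle and neurons, Eif4e1b, an eIF4E of oocytes, and Eif2s3y, the Y-linked gene of the eIF2 gamma subunit. The Y-linked genes Ddx3y, Kdm5d and Uty were also listed at 0 in every library, whereas Eif2s3x, the X-linked partner of Eif2s3y, had a mean of 74.0 FPKM. The X-linked gene Xist was at 113 and 142 FPKM in WT and 108 and 146 FPKM in Apoe-KO.

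**Figure D1:**
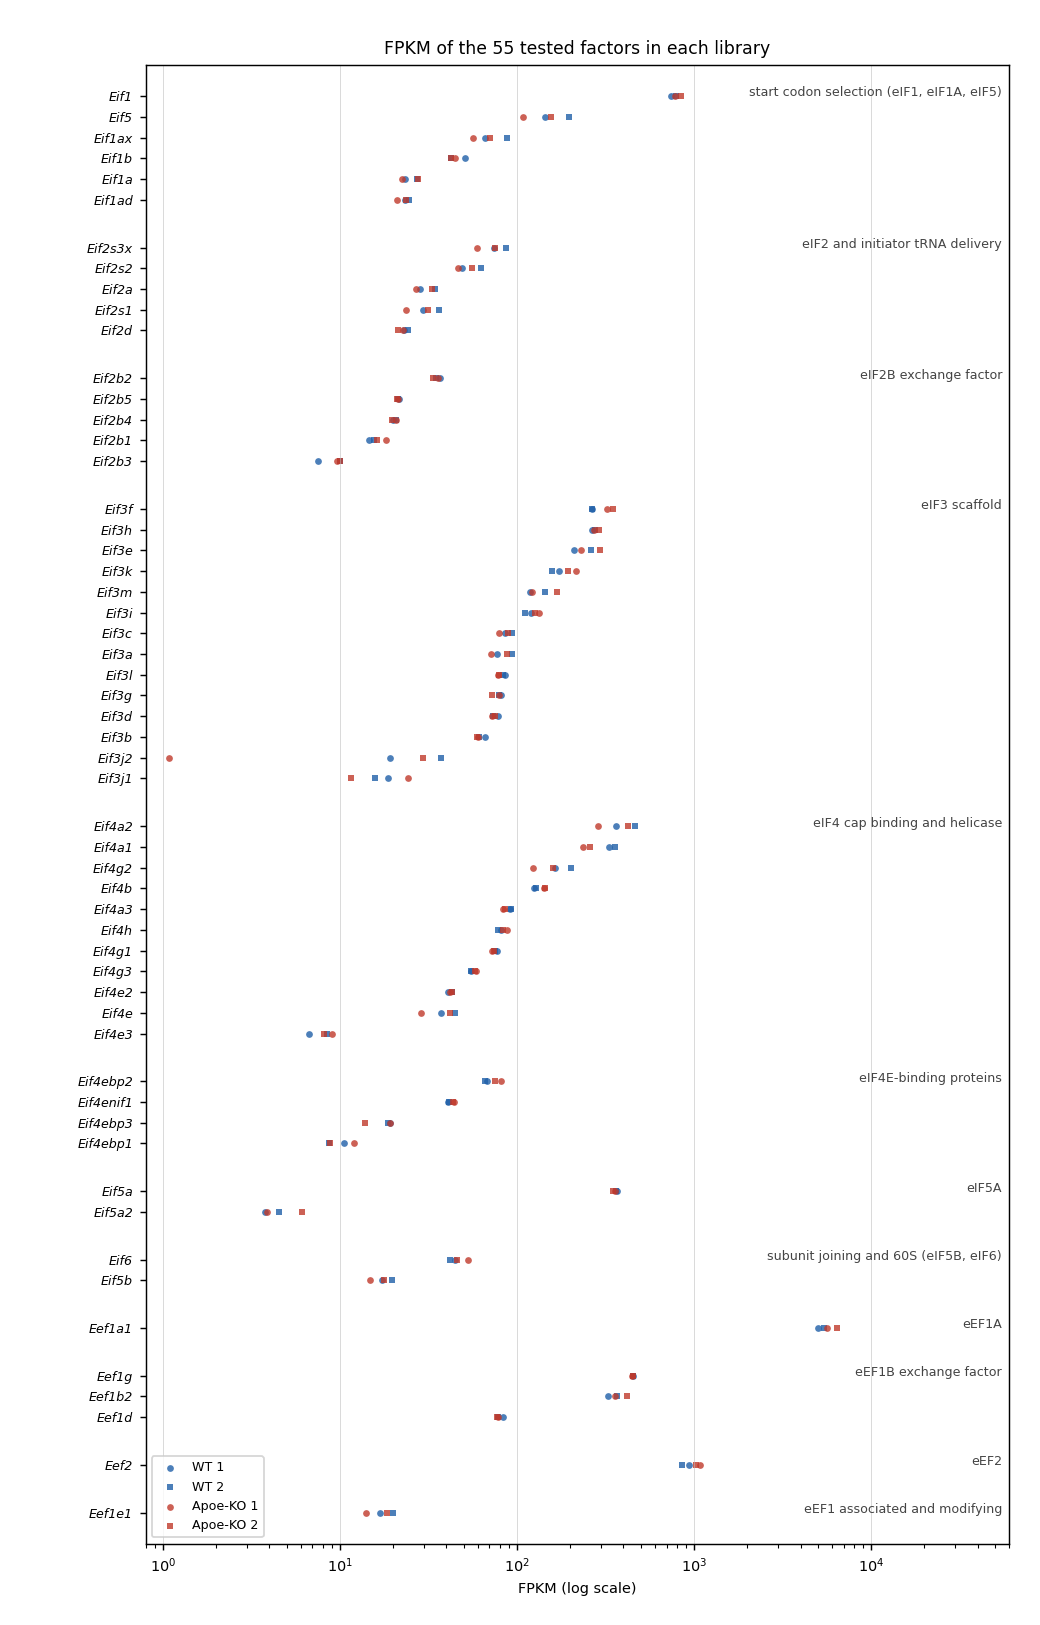
FPKM of the 55 tested factors (rows, grouped by role and sorted by mean level) on a log axis, with blue points for WT and red for Apoe-KO libraries, circles for replicate 1 and squares for replicate 2. Eef1a1 stands apart, from 5042 FPKM upwards, Eif5a2 is lowest, and the Eif3j2 row drops to 1.08 FPKM in Apoe-KO replicate 1.

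Promoter sequence was not used to choose the factors. The E-box CACGTG, a palindrome that reads alike on both strands and is bound by Myc and related factors, was searched in RefSeq promoter windows (GRCm38.p6) from 250 bases before to 50 after each annotated start. Windows were present for 44 of the 58 factors, and 11 of these (25%) held it, against 8.91% of 17491 protein-coding genes and 12.1% of the tested genes with a window. The E-box is given in capitals for eIF4F genes, for Eif3f and Eif3k, and for eIF5A and eEF2. Each stretch is written along the strand of its gene.

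Eif4a1, chr11:69672592-69672627, minus strand: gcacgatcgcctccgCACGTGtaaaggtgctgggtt
Eif4e, chr3:138527189-138527224, plus strand: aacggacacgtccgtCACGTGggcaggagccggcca
Eif4g1, chr16:20672658-20672693, plus strand: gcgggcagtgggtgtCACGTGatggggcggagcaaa
Eif5a, chr11:69921440-69921475, minus strand: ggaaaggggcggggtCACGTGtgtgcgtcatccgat
Eif3f, chr7:108934332-108934367, plus strand: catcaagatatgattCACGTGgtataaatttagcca
Eif3k, chr7:28981912-28981947, minus strand: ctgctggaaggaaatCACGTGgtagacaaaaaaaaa
Eef2, chr10:81176573-81176608, plus strand: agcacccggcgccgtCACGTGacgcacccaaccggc

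The same E-box thus stands before Eif4a1, with the lowest ratio to WT among these, and before Eif3f, with the highest. The 11 factors with an E-box had differences from -0.47 to 0.34 on the log2 scale, 5 above and 6 below 0, with a median of -0.04, and the 31 tested factors without one had a median of -0.06. A match is a description of these letters and not of binding in these cells.

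A second feature concerned the start of the mRNA. TOP mRNAs begin with a C followed by a run of C and T. A run of at least 8 such bases beginning with C, within 20 bases on either side of the RefSeq start and on the strand of the gene, was present in 10 of 44 factors (22.7%), 14.9% of all protein-coding genes and 15.8% of the tested genes with a window. On the opposite strand it was present in 4 of 44 factors (9.09%) and in 15.4% of protein-coding genes. On the strand of the gene, 1 of 5 elongation factors with a window held the run (20%), and that was Eef1a1. These 5 include Eef1a2, listed at 0 FPKM, whereas Eef1d and Eef1g had no window. The longest such run was 5 bases in Eef2, 3 in Eef1b2, and 7 in Eef1e1 and in Eef1a2. The Eef2 run (CTCTT) begins 15 bases after the annotated start and reaches the edge of the stretch searched. Its full length was therefore not measured, and Eef2 is counted here as without a run. The run is shown in capitals for the most abundant elongation factor, for Eif3f and for other factors named here.

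Eef1a1, chr9:78481705-78481744, minus strand: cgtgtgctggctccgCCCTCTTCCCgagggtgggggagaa
Eif3f, chr7:108934395-108934434, plus strand: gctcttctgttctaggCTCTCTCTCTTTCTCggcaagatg
Eif2s3x, chrX:94212632-94212671, minus strand: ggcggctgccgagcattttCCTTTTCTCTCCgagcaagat
Eif3m, chr2:105017008-105017047, minus strand: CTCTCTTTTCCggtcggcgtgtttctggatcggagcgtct
Eif2b5, chr16:20498797-20498836, plus strand: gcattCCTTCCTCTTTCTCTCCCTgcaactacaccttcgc

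In Eif3f and Eef1a1, whose Apoe-KO libraries both lay above WT, the runs were 15 and 10 bases long. Eif2s3x, with a run of 12 bases, was at 74.2 and 87.2 FPKM in WT and 59.4 and 75.1 FPKM in Apoe-KO. Over the 9 tested factors with such a run the median log2 difference was -0.02, with 4 above and 5 below 0, and over the 33 without one it was -0.06. These values show no common direction for the factors with the run, and the annotated starts may lie away from the starts used in these cells. In Eif3m the run begins 20 bases before the annotated start, at the edge of the stretch searched, and ends before that start.

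Among the genes of eIF4F, Eif4a1 (chromosome 11, 69666936 to 69672423, GRCm38) was at 332 and 356 FPKM in WT and 236 and 259 FPKM in Apoe-KO libraries. Both Apoe-KO libraries lay below both WT libraries, and the difference was -0.47 ± 0.09 SE on the log2 scale, with -0.49 within replicate number 1 and -0.46 within number 2. The related helicase gene Eif4a2 was at 364 and 465 FPKM in WT and 287 and 424 FPKM in Apoe-KO, so that its groups overlapped (-0.24 ± 0.21, adjusted p = 0.585). The FPKM ratio of Eif4a1 to Eif4a2 was 0.913 and 0.766 in WT and 0.825 and 0.612 in Apoe-KO, which also overlapped. Eif4a3, whose protein serves in the exon junction complex, had means of 92.0 and 84.8 FPKM.

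Eif4g2 encodes an eIF4G relative that lacks the eIF4E-binding site. It was at 164 and 201 FPKM in WT and 123 and 159 FPKM in Apoe-KO, without overlap by a narrow margin (-0.37 ± 0.16, adjusted p = 0.288). The scaffold gene Eif4g1 was at 77.5 and 75.4 FPKM in WT and 72.4 and 74.0 FPKM in Apoe-KO (-0.06 ± 0.09, adjusted p = 0.746). Eif4g3, its close relative, had means of 55.1 and 58.5 FPKM, and the eIF4E relative Eif4e2 of 41.8 and 42.5 FPKM. Of the cofactors of the helicase, Eif4b had means of 127 and 143 FPKM and Eif4h of 79.7 and 85.7 FPKM, and in both the Apoe-KO libraries lay above the WT libraries.

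The cap-binding protein gene Eif4e was at 37.4 and 45.0 FPKM in WT and 28.9 and 42.1 FPKM in Apoe-KO (-0.23 ± 0.20, adjusted p = 0.579). Its groups overlapped, and the difference was -0.36 within number 1 and -0.09 within number 2. Eif4ebp2 was the most abundant 4E-BP gene, at 68.0 and 66.1 FPKM in WT and 81.0 and 75.0 FPKM in Apoe-KO (0.22 ± 0.10, adjusted p = 0.293, 0.25 and 0.18 within numbers 1 and 2). Both Apoe-KO values lay above both WT values. Eif4ebp1 was at 10.6 and 8.66 FPKM in WT and 12.03 and 8.76 FPKM in Apoe-KO (0.09 ± 0.18, adjusted p = 0.813), and Eif4ebp3 had means of 18.9 and 16.6 FPKM. The ratio of Eif4ebp2 to Eif4e in FPKM was 1.82 and 1.47 in WT and 2.80 and 1.78 in Apoe-KO, with overlap between the genotypes. Eif4enif1, which carries eIF4E into the nucleus, had means of 41.0 and 44.0 FPKM.

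The eIF3 genes spanned a wide range of levels. Leaving out the 2 genes of eIF3j, the other 12 subunits differed by 4.05 and 4.48 times between lowest and highest in the WT libraries and by 5.33 and 5.90 times in the Apoe-KO libraries. Eif3b, an RNA-binding core subunit, was the lowest in every library, while Eif3f or Eif3h, the subunits with an MPN domain, was the highest. Eif3f (chromosome 7, 108934415 to 108941942) was at 266 and 264 FPKM in WT and 324 and 349 FPKM in Apoe-KO. Its WT libraries were nearly level and both Apoe-KO libraries lay above them, with a log2 difference of 0.34 ± 0.08 SE, and of 0.28 and 0.40 within numbers 1 and 2. Eif3h was at 266 and 274 FPKM in WT and 274 and 292 FPKM in Apoe-KO.

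Eif3k, a subunit with a PCI domain, was named after its values were seen. It was at 172 and 158 FPKM in WT and 215 and 194 FPKM in Apoe-KO (0.31 ± 0.10, with 0.32 and 0.30 within numbers 1 and 2). It lies on chromosome 7 at 28971372 to 28981890, 9.27 Mb from Apoe, whereas Eif3f lies 89.2 Mb away and the other factors on that chromosome, Eif4g2 and Eif3c, 91.4 and 107 Mb away. Of the 6 PCI subunits (Eif3a, Eif3c, Eif3e, Eif3k, Eif3l and Eif3m) 3 had positive and 3 negative differences, and of the remaining Eif3b, Eif3d, Eif3g and Eif3i only Eif3i had a positive one (0.17, adjusted p = 0.387). The eIF3 genes as a role had a median log2 difference of -0.04, with 3 of 14 lying above WT without overlap (21.4%, beside 27.5% of all tested genes) and 2 below (14.3%, beside 22.9%).

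**Figure D2:**
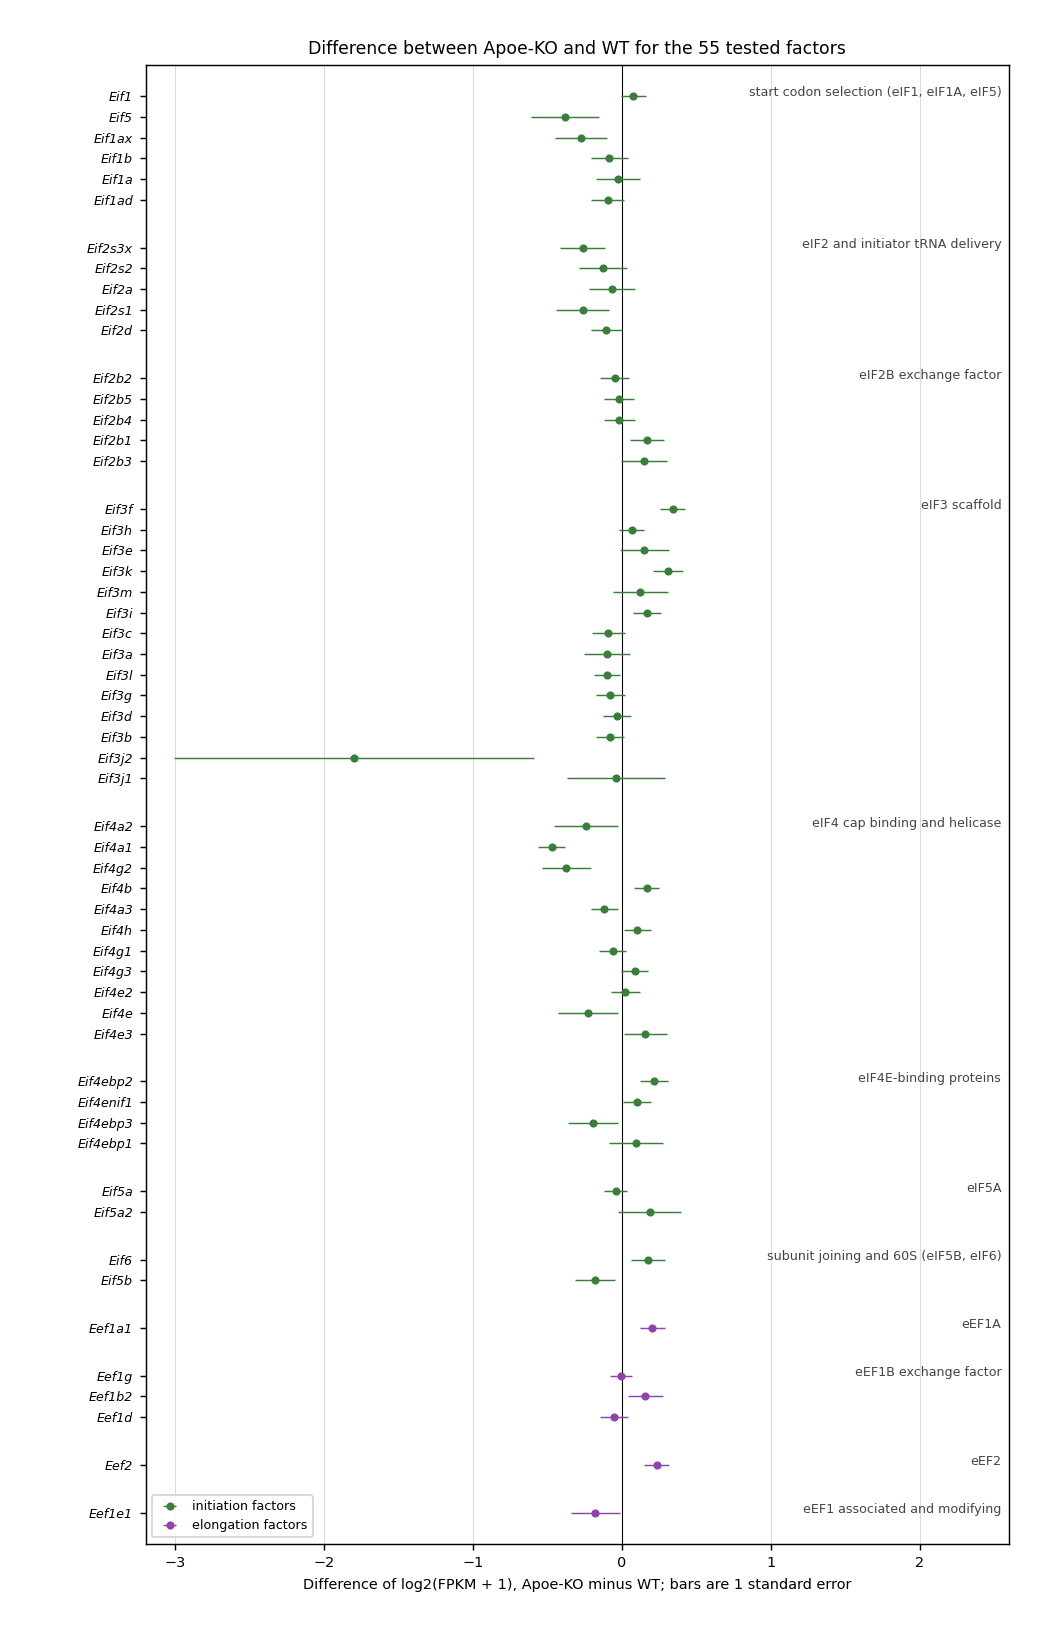
Difference of log2(FPKM + 1) between Apoe-KO and WT libraries for each of the 55 tested factors, grouped by role, with bars of 1 standard error from limma. Green points are initiation and purple points elongation factors; Eif4a1 at -0.47 and Eif3f at 0.34 lie farthest from 0 relative to their error, and Eif3j2 at -1.80 has an error of 1.21.

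Eif3j2 had the largest difference in size, -1.80 ± 1.21 SE (adjusted p = 0.466), and it rested on 1 library. Its values were 19.2 and 37.0 FPKM in WT, 1.08 FPKM in Apoe-KO replicate 1 and 29.6 FPKM in Apoe-KO replicate 2. Without Apoe-KO replicate 1 the difference was 0.14 (adjusted p = 0.894), and without Apoe-KO replicate 2 it was -3.74 (adjusted p = 1.19e-09). Eif3j2 is a single-exon copy on chromosome 18 (43475418 to 43477836) of Eif3j1, which has 8 exons on chromosome 2 (122028580 to 122053632). In GENCODE M21 the coding sequence of Eif3j1 is 783 bases long and aligns to that of Eif3j2 with 783 identical bases (100%), so reads from the coding part cannot be assigned to one gene.

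The Eif3j1 row had 18.8 and 15.9 FPKM in WT and 24.3 and 11.5 FPKM in Apoe-KO, and was thus highest in the library where Eif3j2 was lowest. Summed, both rows had 38.0 and 52.9 FPKM in WT and 25.4 and 41.1 FPKM in Apoe-KO, and the sum gave a difference of -0.46 ± 0.27 SE (adjusted p = 0.401, an alternative chosen after seeing the data). The values of either row alone are therefore uncertain. Other copies among the factors are less alike, with 85.7% identity over the aligned coding bases of Eif1a and Eif1ax, 81.1% for Eif1 and Eif1b and 78% for Eif4a1 and Eif4a2.

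**Figure D3:**
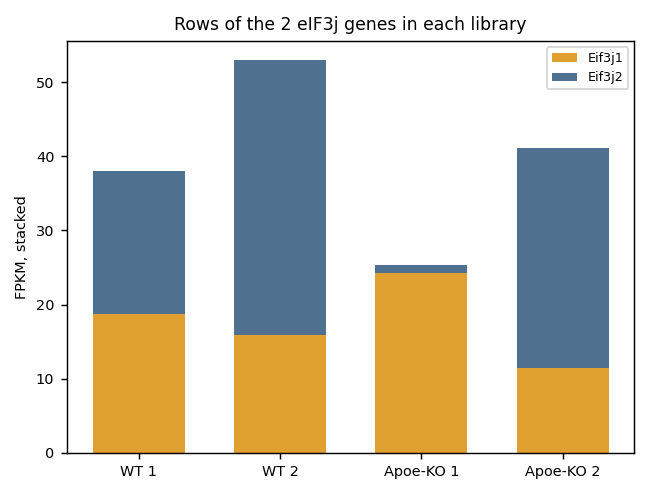
FPKM of the Eif3j1 row (yellow) and the Eif3j2 row (blue) stacked for each library. Nearly all of the 25.4 FPKM in Apoe-KO replicate 1 stands under Eif3j1, while Eif3j2 holds the larger part in both libraries of replicate 2.

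Among 6 genes placed here under start codon choice and 5 under eIF2 and initiator tRNA delivery, the groups overlapped for all but Eif2d. Its means were 23.8 and 22.0 FPKM. Eif5, the GTPase activator of eIF2, was at 145 and 198 FPKM in WT and 108 and 156 FPKM in Apoe-KO (-0.38 ± 0.23, adjusted p = 0.414). Its libraries overlapped across genotypes, although the Apoe-KO library was the lower one within each number, with differences of -0.42 in number 1 and -0.34 in number 2. The Eif5 difference depended on the libraries used. It passed at -0.65 without Apoe-KO replicate 2 (adjusted p = 0.0402), and was -0.60 when WT replicate 1 was left out (adjusted p = 0.221). Leaving out WT replicate 2 gave -0.16 (adjusted p = 0.914), and leaving out Apoe-KO replicate 1 gave -0.11 (adjusted p = 0.882). Eif4a1 passed at -0.54 without Apoe-KO replicate 2 (adjusted p = 0.0423) and was between -0.52 and -0.41 with any other library left out, without passing. Eif1 was at 745 and 796 FPKM in WT and 777 and 848 FPKM in Apoe-KO (0.08 ± 0.09, adjusted p = 0.661; -0.08 with quantile normalization). The other genes placed under start codon choice were Eif1a, Eif1ad, Eif1ax and Eif1b. They had mean levels from 23.1 FPKM (Eif1ad) to 70.3 FPKM (Eif1ax) and differences from -0.27 to -0.03, all with overlap. Whether Eif1ad acts in start codon choice was not tested.

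The alpha subunit gene of eIF2, Eif2s1, whose protein is the target of the stress kinases, was at 29.6 and 36.3 FPKM in WT and 23.5 and 31.3 FPKM in Apoe-KO (-0.26 ± 0.18, adjusted p = 0.467). Eif2s2, the beta subunit, had means of 56.0 and 51.0 FPKM, and Eif2a, an alternative initiator tRNA factor, of 31.3 and 29.9 FPKM. With Eif2s3x included, the order alpha, beta, gamma from lowest to highest was the same in all 4 libraries. The exchange factor eIF2B was lower, from 9.30 FPKM for Eif2b3 to 35.3 FPKM for Eif2b2, the mean over 4 libraries in each case. Eif2b2 was at 36.8 and 35.1 FPKM in WT and 35.7 and 33.7 FPKM in Apoe-KO (-0.05 ± 0.10, adjusted p = 0.820), and the 5 genes of eIF2B (Eif2b1 to Eif2b5) had differences from -0.05 to 0.17, without overlap for Eif2b1.

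Eif5a, whose protein carries the modified residue hypusine and relieves ribosomes stalled at prolines, was at 366 and 363 FPKM in WT and 360 and 348 FPKM in Apoe-KO (-0.04 ± 0.08, adjusted p = 0.809). Eif6, which keeps the large ribosomal subunit apart from the small one, was at 44.7 and 42.0 FPKM in WT and 52.7 and 45.7 FPKM in Apoe-KO (0.18 ± 0.11, adjusted p = 0.451). Eif5b, the GTPase of subunit joining, had means of 18.6 and 16.3 FPKM. The difference of Eif5b was -0.18 ± 0.14 (adjusted p = 0.515), with overlap, whereas both Apoe-KO values of Eif6 lay above both WT values.

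Elongation factors were few and unequal. Eef1a1 (chromosome 9, 78478453 to 78481724) made up 73.5% and 75.3% of the summed elongation factor FPKM in WT and 74.1% and 76.2% in Apoe-KO. Its Apoe-KO libraries both lay above WT (0.21 ± 0.08, adjusted p = 0.263, 0.17 and 0.24 within numbers 1 and 2). Eef2 (chromosome 10, 81176631 to 81182509) was at 940 and 857 FPKM in WT and 1084 and 1029 FPKM in Apoe-KO, again without overlap (0.23 ± 0.08, adjusted p = 0.213, 0.20 and 0.26 within numbers 1 and 2). With quantile normalization the differences of Eef1a1 and Eef2 were smaller, 0.10 and 0.13.

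The subunits of eEF1B did not follow in step. Eef1b2, the nucleotide exchange subunit, was at 327 and 369 FPKM in WT and 359 and 419 FPKM in Apoe-KO, with overlap. Eef1g was at 454 and 452 FPKM in WT and 449 and 453 FPKM in Apoe-KO, the tightest values of all elongation factors, with a difference of -0.0053 ± 0.075 (adjusted p = 0.980). Eef1d, a further exchange subunit, had means of 80.7 and 77.8 FPKM. Eef1e1, a small protein of the multi-synthetase complex, was at 16.9 and 19.9 FPKM in WT and 14.1 and 18.4 FPKM in Apoe-KO (-0.18 ± 0.16, adjusted p = 0.593).

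Compared as classes, initiation factors summed to 4969 and 5389 FPKM in WT and 4837 and 5357 FPKM in Apoe-KO, with overlap. Elongation factors summed to 6864 and 7200 FPKM in WT and 7661 and 8401 FPKM in Apoe-KO, which did not overlap, and they took 1.31% and 1.37% of the FPKM total in WT and 1.44% and 1.52% in Apoe-KO. The ratio of the sums was 1.36 ± 0.032 (SD, n = 2) in WT and 1.58 ± 0.011 (SD, n = 2) in Apoe-KO. No p is given for it, since 2 libraries against 2 cannot go below p = 0.333 in an exact permutation test. Without Eef1a1 the ratio was 0.367 and 0.330 in WT and 0.410 and 0.373 in Apoe-KO, with Apoe-KO still above WT. Its Apoe-KO mean was 12.49% above WT, beside 15.99% with Eef1a1. With Eif5a and Eif5a2 counted as elongation factors it was 1.57 and 1.51 against 1.79 and 1.75. The median log2 difference was 0.08 over 6 elongation factors and -0.04 over 49 initiation factors, beside 0.0003 over all tested genes, and 3 of the 6 elongation factors had positive differences (Eef1a1, Eef2 and Eef1b2).

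**Figure D4:**
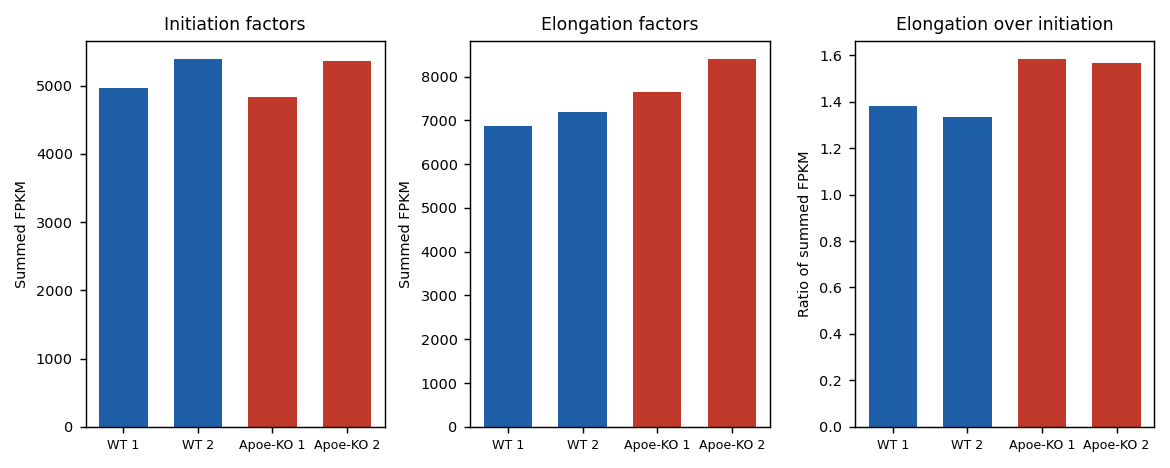
Summed FPKM of the initiation factors (left) and elongation factors (middle) and the ratio of the second to the first (right) in each library, with bars starting at 0, blue for WT and red for Apoe-KO. The initiation sums of the genotypes overlap, and the ratio is 1.38 and 1.34 in WT against 1.58 and 1.57 in Apoe-KO.

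For many factors the libraries with replicate number 2 differed from those with number 1 in the same direction in both genotypes. Number 2 was above number 1 in both genotypes for 28 of 55 factors (50.9%, against 46.5% of tested genes) and below in both for 16 (29.1%, against 31%). In 16 factors (29.1%, against 17.8% of tested genes) number 2 was higher by 0.2 or more on the log2 scale in WT and in Apoe-KO alike. They include Eif5, Eif4a2, Eif4e, Eif4g2, Eif2s1, Eif2s2, Eif2s3x, Eif3a, Eif3e and Eif3m. In 2 factors, Eif3j1 and Eif4ebp1 (3.64%, against 5.4% of tested genes), number 2 was lower by as much in both genotypes. For these genes the spread between libraries of one genotype is larger than for Eif5a, Eef1g or Eif2b5, and a difference of a given size was further from passing. The labels do not say what the numbers share.

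**Figure D5:**
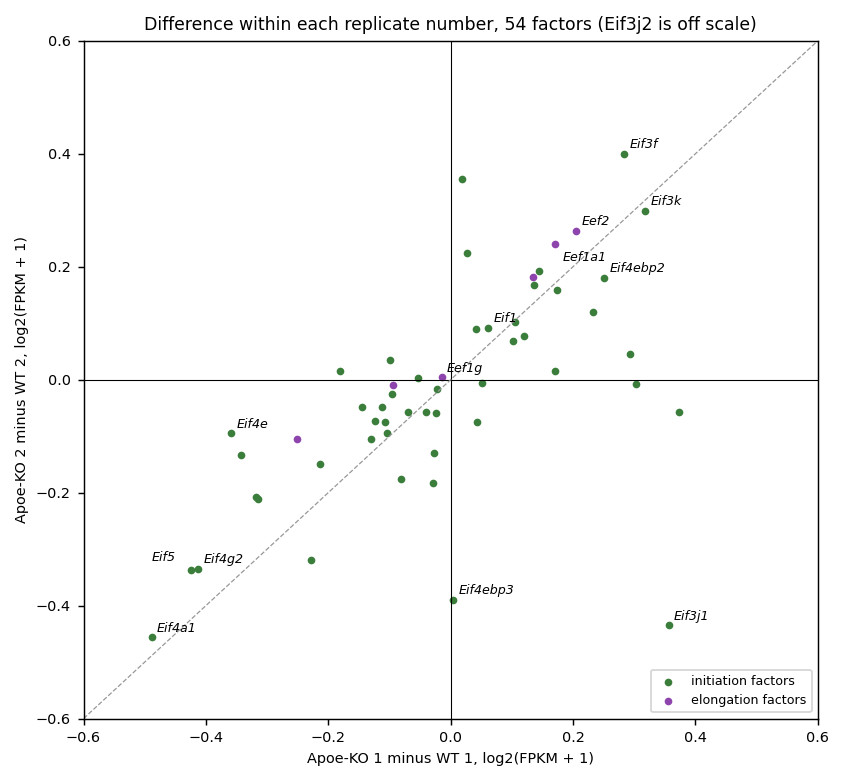
Difference of log2(FPKM + 1) between Apoe-KO and WT within replicate number 1 (horizontal) and within number 2 (vertical) for 54 factors, green for initiation and purple for elongation factors, with equal differences on the dashed line. Eif4a1, Eif5 and Eif4g2 lie at the lower left and Eif3f, Eif3k, Eef2 and Eef1a1 at the upper right, whereas Eif3j1 differs in opposite directions; Eif3j2 is outside the plot.

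The wider pathway was read from a list of 60 symbols covering kinases and phosphatases of eIF2, mTORC1 and S6 kinase, MNK kinases, poly(A)-binding proteins, scanning and recycling helpers, termination, hypusine and diphthamide enzymes and mitochondrial factors. Of 59 found, 58 were tested and 0 passed. Their median difference was -0.09, and at an unadjusted p under 0.05 limma gave 5 genes, all lower in Apoe-KO, which were Eif2ak3, Sesn2, Dhx29, Etf1 and Gfm2. Over all tested genes 19.9% did so, 8.27% with Apoe-KO lower. Groups did not overlap for 29 of 58 (50%, beside 50.4% of all tested genes). Apoe-KO was below in 17 (29.3%, beside 22.9%) and above in 12 (20.7%, beside 27.5%).

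Sesn2, a stress-induced inhibitor of mTORC1, had the largest difference on the list, with 8.11 and 5.93 FPKM in WT and 4.54 and 3.61 FPKM in Apoe-KO (-0.65 ± 0.18, adjusted p = 0.145). Etf1, the release factor that recognises stop codons, was at 68.2 and 80.2 FPKM in WT and 45.1 and 56.9 FPKM in Apoe-KO (-0.54 ± 0.15, adjusted p = 0.146). Abce1, which splits ribosomes after termination, was at 38.5 and 53.3 FPKM in WT and 26.4 and 37.2 FPKM in Apoe-KO, and the RNA helicase gene Ddx3x at 176 and 228 FPKM in WT and at 124 and 176 FPKM in Apoe-KO. In Sesn2, Etf1, Abce1 and Ddx3x the Apoe-KO libraries lay below WT, for Ddx3x by a margin under 0.1 FPKM. The eIF2 kinase gene Eif2ak3, known as PERK, was at 15.8 and 16.7 FPKM in WT and 11.2 and 12.4 FPKM in Apoe-KO (adjusted p = 0.129), while Eef2k, the kinase that inhibits eEF2, had means of 1.57 and 1.65 FPKM, and Pabpc1, the main poly(A)-binding protein gene, of 546 and 553 FPKM.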

How the data were processed

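The authors deposited 1 table of FPKM values per gene symbol and library, already scaled for transcript length and mapped fragments. The build mm10, Cuffdiff 2.2.0, TopHat2 2.0.13 and CASAVA 1.8.2 are named, with no order or settings, per the submitters' processing notes. For the annotation and any strand setting, the status is: not given in the sources used here. Read depth is unknown, since whole reads could not be recovered, and no counting interval is given. In 2 rows (Bcl6 and Cxcr5) a space replaces a tab, and rows were split on white space.

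Values were tested as log2(FPKM + 1) for 11187 genes with a mean of at least 1 FPKM, using limma 3.58.1 in R 4.3.3 (two-sided, eBayes with trend, all 4 libraries, no covariate) with Benjamini-Hochberg adjustment. The log2(FPKM + 1) scale understates differences of low genes, and ratios are of mean FPKM. The procedure was tested on simulated data whose planted differences were larger than those of most factors and without shifts shared by a replicate number. That simulation does not show how differences as small as those of most factors are recovered. The members and lists were chosen with earlier results of these data known. Values in every library are given for members that passed (none), those with the largest differences (5 initiation, 3 elongation), the most abundant of each role and 10 at regulated steps. All 58 symbols matched RefSeq (GRCm38.p6), the source of positions and promoter sequences. Alternatives changed the pseudocount, filter, scaling, variance model, libraries and replicate block.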

Additional observations from a re-analysis of the deposited data

How the results depend on the processing

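Over 11187 tested genes 205 passed. That count was 76 with no FPKM filter, 122 with a mean FPKM of 5 or more, and between 130 and 690 with 1 library left out. The number of factors passing stayed at 0 in every setting that kept all libraries without a replicate block, and was between 0 and 3 with 1 library left out (0 to 3 for initiation and 0 for elongation factors). With 1 library left out, the lone library is assumed to vary like the other group.

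With a replicate block on the number in the title, 3684 genes passed (32.9%). Of the factors 17 passed (30.9%), 14 initiation and 3 elongation factors, 10 of them higher in Apoe-KO and 7 lower. They include Eif4a1, Eif5, Eif4g2, Eif3f, Eif3k, Eef1a1 and Eef2. The shifts from number 1 to number 2 in WT and in Apoe-KO had a correlation of 0.21 across the 11187 genes and of 0.78 across the 55 factors. Genes are not independent, and with 2 pairs neither value establishes a pairing.

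The median difference of initiation factors was -0.089 with libraries rescaled to one FPKM total, which also moved the median of all genes to -0.043, and between -0.049 and 0.0032 with 1 library left out. That of elongation factors was 0.029 with that rescaling, 0.044 with quantile normalization, 0.16 without Eef1e1 and between 0.018 and 0.10 with 1 library left out. The difference of the class ratio, 0.22, was 0.043 without Eef1a1 (added after seeing the data), on a smaller ratio. As a percent of the WT mean these are 15.99% and 12.49%. The sign turned for Eif1 with quantile normalization (-0.083) and for Eef1g with libraries rescaled to one median (0.0054), a shift common to all genes, whose median moved from 0.0003 to 0.010. With 1 library left out the ranges crossed 0 for Eif3j2 (-3.74 to 0.14), Eef1e1 (-0.36 to 0.0055), Eef1g (-0.012 to 0.0010), Eif4a2 (-0.52 to 0.043), Eif4e (-0.49 to 0.036) and Eif4ebp1 (-0.12 to 0.30). The cause was not tested.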
